A study of Mus musculus with 28 samples.

Results

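The genes of mitosis and of the G2/M transition were followed in mouse lungs after inhalation of carbon black, ozone or both. They are a set of 57 genes named by symbol for their known roles. All 57 were found among the 35880 genes of the table and passed the low-count filter. That filter was applied over all 8 groups at once, so members scarce in sham could pass through the groups where they were high. The counts of members higher in those groups are not independent of it. The libraries hold messenger RNA from whole-lung homogenates of male wild-type C57BL/6 mice, an inbred strain, aged 8 to 12 weeks. The 8 groups were sham, carbon black at 10 mg/m3, ozone at 2 ppm, and co-exposure to 10 mg/m3 carbon black with 2 ppm ozone, each given for 3 hours on 1 day (day 1, 4 libraries a group) or daily for 4 days (day 4, 3 libraries a group). No allele, transgene or further agent is named for any group. Carbon black is a powder of nearly pure carbon particles, and ozone is an oxidant gas.

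A cell that divides first copies its DNA in S phase and then passes through G2 into mitosis. Entry into mitosis is driven by the kinase CDK1 bound to cyclin A or cyclin B, and the transcription factor FOXM1 together with the DREAM and MuvB complexes switches the genes of this phase on and off as a block. Exit from mitosis follows when the anaphase-promoting complex, activated by CDC20, marks cyclin B and securin for destruction. In the adult lung few cells divide at rest, and epithelial, endothelial and immune cells can enter the cycle after injury.

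Levels are given in CPM (counts divided by the TMM-scaled library total, on one scale for all libraries), and differences as log2 fold changes with a standard error (SE) from edgeR's quasi-likelihood test. A gene passed the test at an adjusted p (Benjamini-Hochberg over all 14887 genes tested) under 0.05. Libraries held 5.14 to 9.72 M estimated counts (M, mega), with a median of 7.19 M, and 3 counts in a library stood for 0.309 to 0.649 CPM. In sham libraries the members were scarce, with a median of 24 counts per member and library at day 1 and 23 at day 4. The medians were 177 in ozone libraries and 214 in co-exposure libraries of day 4. Troap, for example, had a mean of 0.385 CPM in day 1 sham and 4.89 CPM after ozone at day 4. In 4 libraries, genes of muscle and brown fat (8 genes) stood high, at a mean log2 CPM of 7.04 in sham day 1 replicate 2, 4.90 in ozone day 1 replicate 2, 5.77 in carbon black day 4 replicate 3 and 6.08 in co-exposure day 4 replicate 3. The other libraries were at 1.58 to 3.85, and counts are also given without these 4. Day and number of exposures cannot be told apart, and in a homogenate more dividing cells and more RNA per dividing cell cannot be told apart either.

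Many promoters of this phase carry a cell cycle genes homology region (CHR), whose core is TTTGAA, downstream of CCAAT boxes bound by the factor NF-Y. Windows of 300 bases, 250 before to 50 after the start, were read from RefSeq promoters (GRCm38.p6). An entry was found for 45 members, of which 43 had a single start. On either strand TTTGAA was present in 31 of these 43 (72.1%) and in 18.5% of the windows of all 22862 genes with a single start. The box CCAAT was in 30 of 43 (69.8%), against 38.2% of all genes. Both motifs together were in 24 of 43 (55.8%), against 7.21%. The motifs were sought as exact letters and no printed match overlaps another, so a match describes the letters and is no proof of binding. The promoters below (the 120 bases before the start, 5′ to 3′ on the gene's strand, with matches of both motifs on either strand in capitals) are shown because these genes mark the range of responses described later: Cdk1 and Cdca5 rose on day 1, Cdc20 and Ccnb2 passed the test against sham on day 4 and not on day 1, and Pttg1 did not follow the other members.

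Cdk1, chr10:69352913-69353032, minus strand: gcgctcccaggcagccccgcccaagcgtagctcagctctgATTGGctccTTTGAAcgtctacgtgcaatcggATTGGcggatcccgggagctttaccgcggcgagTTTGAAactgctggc

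Cdca5, chr19:6084977-6085096, plus strand: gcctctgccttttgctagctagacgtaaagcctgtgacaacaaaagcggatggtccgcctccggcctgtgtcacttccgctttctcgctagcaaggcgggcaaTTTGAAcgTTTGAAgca

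Cdc20, chr4:118437344-118437463, minus strand: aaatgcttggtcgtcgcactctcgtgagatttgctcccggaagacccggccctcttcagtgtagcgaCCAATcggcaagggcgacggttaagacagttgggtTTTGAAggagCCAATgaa

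Ccnb2, chr9:70421555-70421674, minus strand: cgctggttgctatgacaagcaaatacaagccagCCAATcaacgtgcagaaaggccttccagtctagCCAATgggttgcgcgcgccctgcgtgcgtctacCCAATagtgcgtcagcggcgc

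Pttg1, chr11:43425982-43426101, minus strand: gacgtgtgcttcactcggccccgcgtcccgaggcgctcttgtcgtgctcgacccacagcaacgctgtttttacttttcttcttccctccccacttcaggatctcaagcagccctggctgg

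In these stretches Cdk1 had 2 matches of TTTGAA and 2 of CCAAT (read as ATTGG on this strand), and Cdca5 had 2 TTTGAA and 0 CCAAT. Cdc20 carried both motifs, Ccnb2 had CCAAT without TTTGAA, and the Pttg1 stretch held neither. The RefSeq starts used here differ from the gene starts of GENCODE M21. The Pttg1 stretch lies wholly inside the gene as placed there (43420250 to 43426251), and most of the Cdca5 stretch lies inside its gene (6084983 to 6091777). The bases before the GENCODE start of Pttg1 were not shown, so the lack of both motifs is stated for this stretch only. The same limit holds for the lack of TTTGAA in Ccnb2 and of CCAAT in Cdca5. The printed stretches end at the start, whereas the counted windows begin further upstream and run 50 bases past the start.

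Ozone given daily for 4 days raised nearly the whole set, and a single exposure raised a part of it by less. At day 4, 56 of 57 members were higher after ozone than in sham and 1 was lower, where 11.7% of all genes tested were higher and 9.07% lower. After co-exposure at day 4, 56 of 57 were higher and none lower, where 17.7% and 16.3% of all genes were. The median log2 fold change of the members was 3.09 (8.5-fold) after ozone and 3.37 (10.3-fold) after co-exposure, against medians over all genes of -0.01 and 0.00. At day 1, 17 of 57 were higher after ozone (6.81% of all genes) and 28 of 57 after co-exposure (10.1%), with medians of 0.67 (1.59-fold) and 0.68 (1.6-fold), and no member was lower in either, where 4.63% and 9.09% of all genes were. Carbon black alone raised 1 of 57 past the threshold at day 1 (1.57% of all genes) and none at day 4, where 0.208% of all genes passed in either direction.

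**Figure D1:**
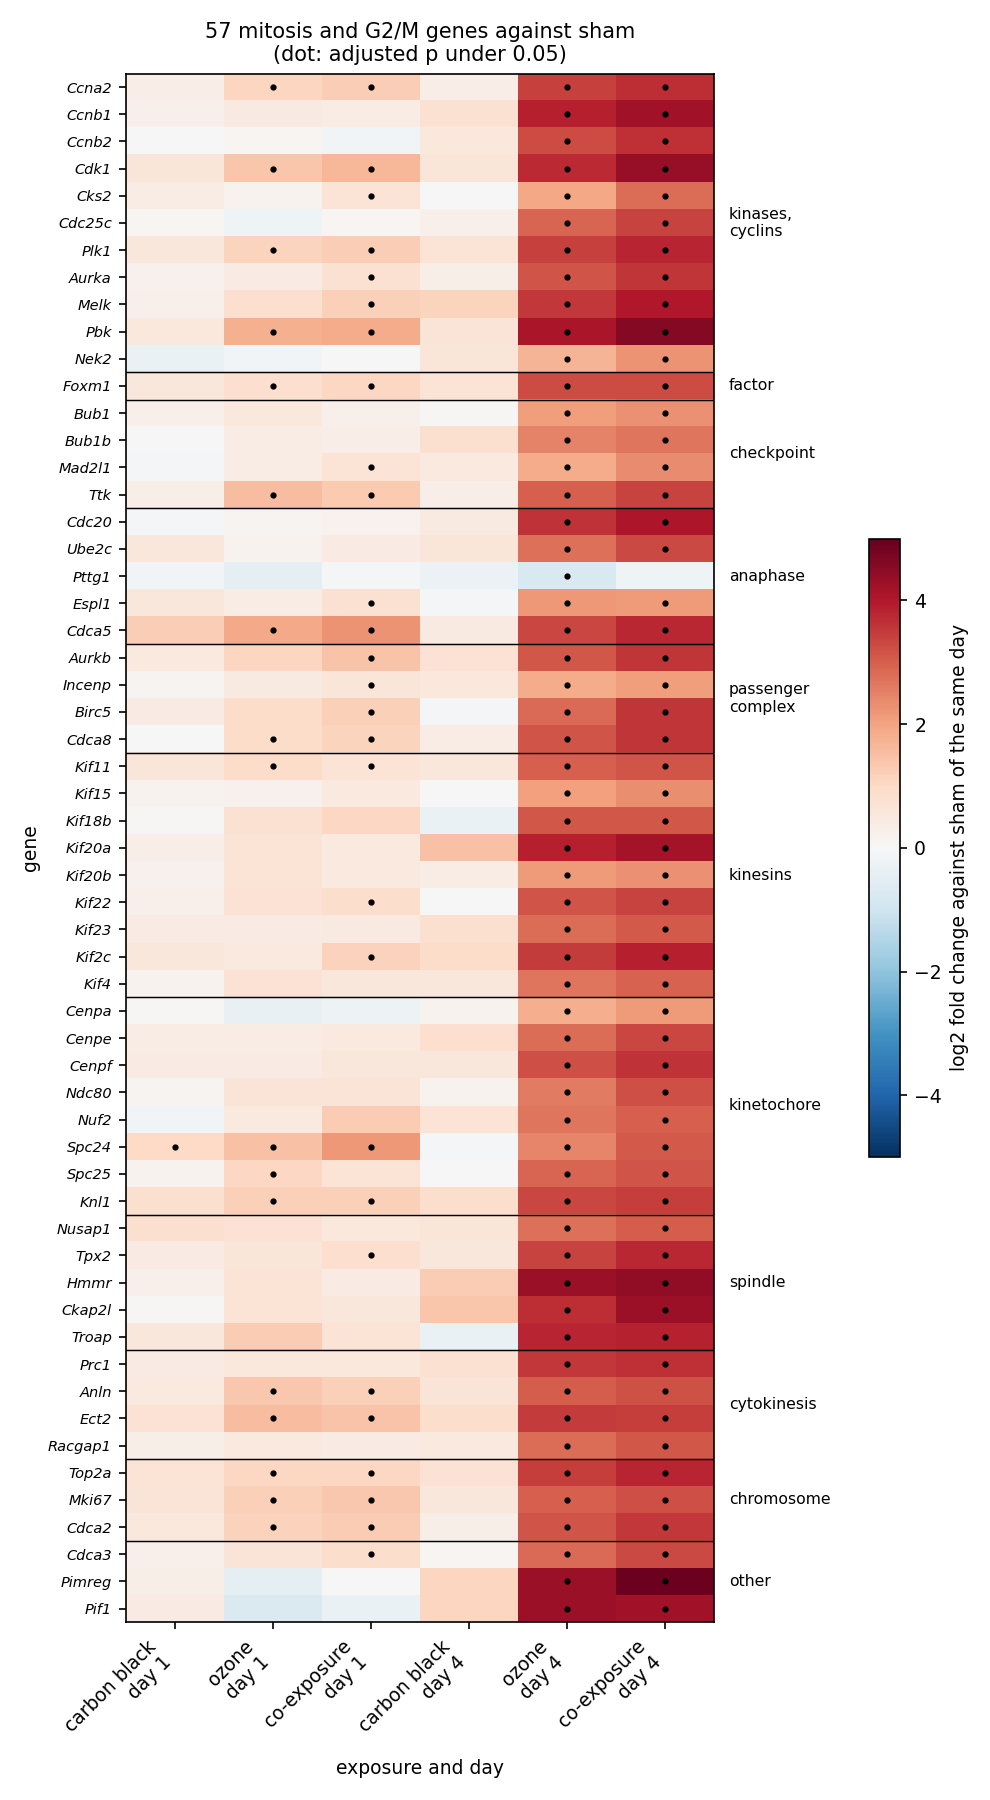
Log2 fold change of each of the 57 genes (rows, by role) against sham of the same day for the 3 exposures at day 1 and day 4 (columns). Dots mark an adjusted p under 0.05. In the ozone and co-exposure columns of day 4 every gene but Pttg1 is raised, while the day 1 columns hold 17 and 28 marked genes.

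The kinases and cyclins that drive entry into mitosis were followed first. Cdk1 (ENSMUSG00000019942, GRCm38 chromosome 10, 69335146 to 69352938) encodes the mitotic kinase. At day 1 it stood at 4.76, 4.30, 3.46 and 2.58 CPM in sham, at 6.58, 10.6, 7.75 and 14.2 after ozone and at 15.1, 8.49, 10.9 and 12.4 after co-exposure. Every ozone and co-exposure library of day 1 lay above every sham library. Its log2 fold change was 1.39 ± 0.28 (SE) after ozone (adjusted p = 0.00165) and 1.64 ± 0.28 after co-exposure (adjusted p = 0.000168). At day 4 sham libraries held 3.13, 2.46 and 4.08 CPM, ozone libraries 40.2, 47.9 and 41.3, and co-exposure libraries 54.2, 70.1 and 77.7. These groups were far apart, with a 13.1-fold rise after ozone and a 20.4-fold rise after co-exposure. The levels with carbon black alone were 4.02, 8.45, 3.66 and 6.94 CPM at day 1 and 4.54, 6.70 and 3.51 at day 4, which overlapped sham at both days.

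The cyclin B genes passed the test on day 4 and not on day 1. Ccnb1 (ENSMUSG00000041431, chromosome 13, 100778650 to 100786570) encodes cyclin B1. It measured 2.91, 3.41, 2.95 and 1.84 CPM in day 1 sham libraries, 2.53, 3.66, 2.77 and 6.03 after ozone, and 4.60, 3.03, 2.68 and 3.99 after co-exposure. These ranges overlapped, and neither difference passed the test (0.45 ± 0.28 and 0.38 ± 0.29). At day 4 Ccnb1 was at 2.40, 1.23 and 2.26 CPM in sham, 25.6, 29.1 and 34.8 after ozone and 36.2, 31.1 and 42.8 after co-exposure. The log2 fold changes of 3.88 ± 0.31 (adjusted p = 1.69e-09) and 4.18 ± 0.31 (adjusted p = 2.37e-10) are 14.8-fold and 18.1-fold rises. For Ccnb2, cyclin B2, the day 1 values were 4.63, 3.41, 3.20 and 2.45 CPM in sham and 2.19, 4.60, 3.32 and 4.20 after ozone. The co-exposure libraries of day 1 held 4.46, 1.82, 2.82 and 3.28 CPM of it, and the 3 groups overlapped. At day 4 it rose from 2.89, 2.31 and 3.12 CPM to 26.6, 27.3 and 27.4 after ozone and to 32.0, 38.3 and 36.7 after co-exposure. Ccnb1 and Ccnb2 each have a pseudogene of the same name in the annotation, so how the reads were divided among copies is uncertain for both.

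Cyclin A2, which serves S phase as well as mitosis, rose on both days. Ccna2 had 6.08, 7.12, 4.87 and 5.03 CPM in day 1 sham libraries, 4.72, 13.7, 9.96 and 20.2 after ozone and 15.8, 14.4, 12.98 and 10.5 after co-exposure. Ozone replicate 1 lay below every sham library, and all co-exposure libraries lay above them. The log2 fold changes were 1.09 ± 0.28 (adjusted p = 0.0115) and 1.22 ± 0.28 (adjusted p = 0.00312) at day 1, and 3.41 ± 0.31 and 3.68 ± 0.31 at day 4. Plk1, a kinase of mitotic entry and spindle assembly, was 1.11 ± 0.32 and 1.22 ± 0.32 higher at day 1 on this scale. Its level after co-exposure was 7.62 CPM in replicate 1 and 3.18, 3.53 and 3.42 in the others, and sham held 1.48 to 2.18. Aurka, the spindle-pole kinase, passed at day 1 after co-exposure (0.74 ± 0.21, adjusted p = 0.012), and its value after ozone was 0.39 ± 0.21. At day 4 Aurka was at 19.3, 22.4 and 19.1 CPM after ozone and 27.2, 26.0 and 28.2 after co-exposure, against 2.04, 1.69 and 3.01 in sham. All 11 members of this role rose in both day 4 comparisons, with medians of 3.41 after ozone and 3.68 after co-exposure, and 4 and 7 of them rose at day 1. Pbk, a mitotic kinase, had the largest day 1 value of the role after ozone (1.79 ± 0.33).

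Foxm1, the factor that activates this gene block, rose on day 1 and stood higher still at day 4. Sham libraries of day 1 held 5.03, 3.71, 3.08 and 4.29 CPM, ozone libraries 4.39, 6.49, 8.16 and 9.95, and co-exposure libraries 10.9, 6.97, 7.20 and 8.26. Only ozone replicate 1 fell within the sham range. Its log2 fold change was 0.85 ± 0.28 after ozone (adjusted p = 0.0458) and 1.05 ± 0.28 after co-exposure (adjusted p = 0.00838). At day 4 the ozone libraries held 30.4, 25.6 and 31.5 CPM and the co-exposure libraries 32.8, 29.2 and 24.8, against 4.09, 2.77 and 2.26 in sham. The difference of 9.56-fold after ozone and 9.5-fold after co-exposure was thus of like size in both.

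The genes of the spindle checkpoint and of anaphase included Cdc20, with the smallest p of day 4, and Pttg1, the one member that fell. Cdc20 (ENSMUSG00000006398, chromosome 4, 118432901 to 118437352) encodes the activator of the anaphase-promoting complex. Its day 1 levels were 6.35, 6.38, 5.89 and 3.93 CPM in sham, 5.06, 5.78, 5.54 and 8.27 after ozone and 8.14, 5.46, 5.92 and 5.56 after co-exposure, which overlapped. At day 4 it measured 3.13, 3.84 and 3.98 CPM in sham, 44.4, 47.8 and 43.3 after ozone, and 53.5, 62.0 and 65.5 after co-exposure. It had the smallest p of all members there, with log2 fold changes of 3.62 ± 0.21 (adjusted p = 6.25e-12) and 4.04 ± 0.21 (adjusted p = 6.54e-13). Bub1b, a checkpoint kinase homolog that restrains Cdc20, went from 5.77, 5.99 and 4.73 CPM in day 4 sham libraries to 29.96, 31.8 and 30.5 after ozone and 39.9, 34.6 and 29.6 after co-exposure. Its day 1 values of 0.36 ± 0.20 and 0.32 ± 0.21 did not pass. Ttk, the kinase that starts the checkpoint signal, passed on day 1 with 1.52 ± 0.43 after ozone and 1.31 after co-exposure.

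Among the genes that hold and release sister chromatids, Cdca5 rose on day 1. Cdca5 encodes sororin, which stabilises cohesin, and was at 1.46, 0.445, 0.512 and 0.491 CPM in day 1 sham libraries, near the level of 3 counts. After ozone it was at 2.02, 4.25, 1.80 and 2.94 CPM and after co-exposure at 4.20, 1.67, 3.67 and 4.56, above every sham library in both. The rises of 1.91 ± 0.44 (adjusted p = 0.00518) and 2.26 ± 0.43 (adjusted p = 0.000594) were the largest of day 1 in each exposure. Pttg1 (ENSMUSG00000020415, chromosome 11, 43420250 to 43426251) encodes securin, the inhibitor of the enzyme that cleaves cohesin. In sham it held 34.3, 27.7, 40.5 and 35.8 CPM at day 1 and 39.8, 45.2 and 42.8 at day 4. Ozone libraries were at 25.6, 25.8, 30.2 and 19.9 CPM at day 1 and 23.1, 26.5 and 26.3 at day 4, and the day 4 groups did not overlap. Pttg1 fell after ozone at day 4 (-0.75 ± 0.19, adjusted p = 0.00488), the one member lower in any comparison. After co-exposure at day 4 its libraries held 23.6, 43.6 and 41.7 CPM, a spread that spanned sham, and the change of -0.23 ± 0.18 did not pass.

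**Figure D2:**
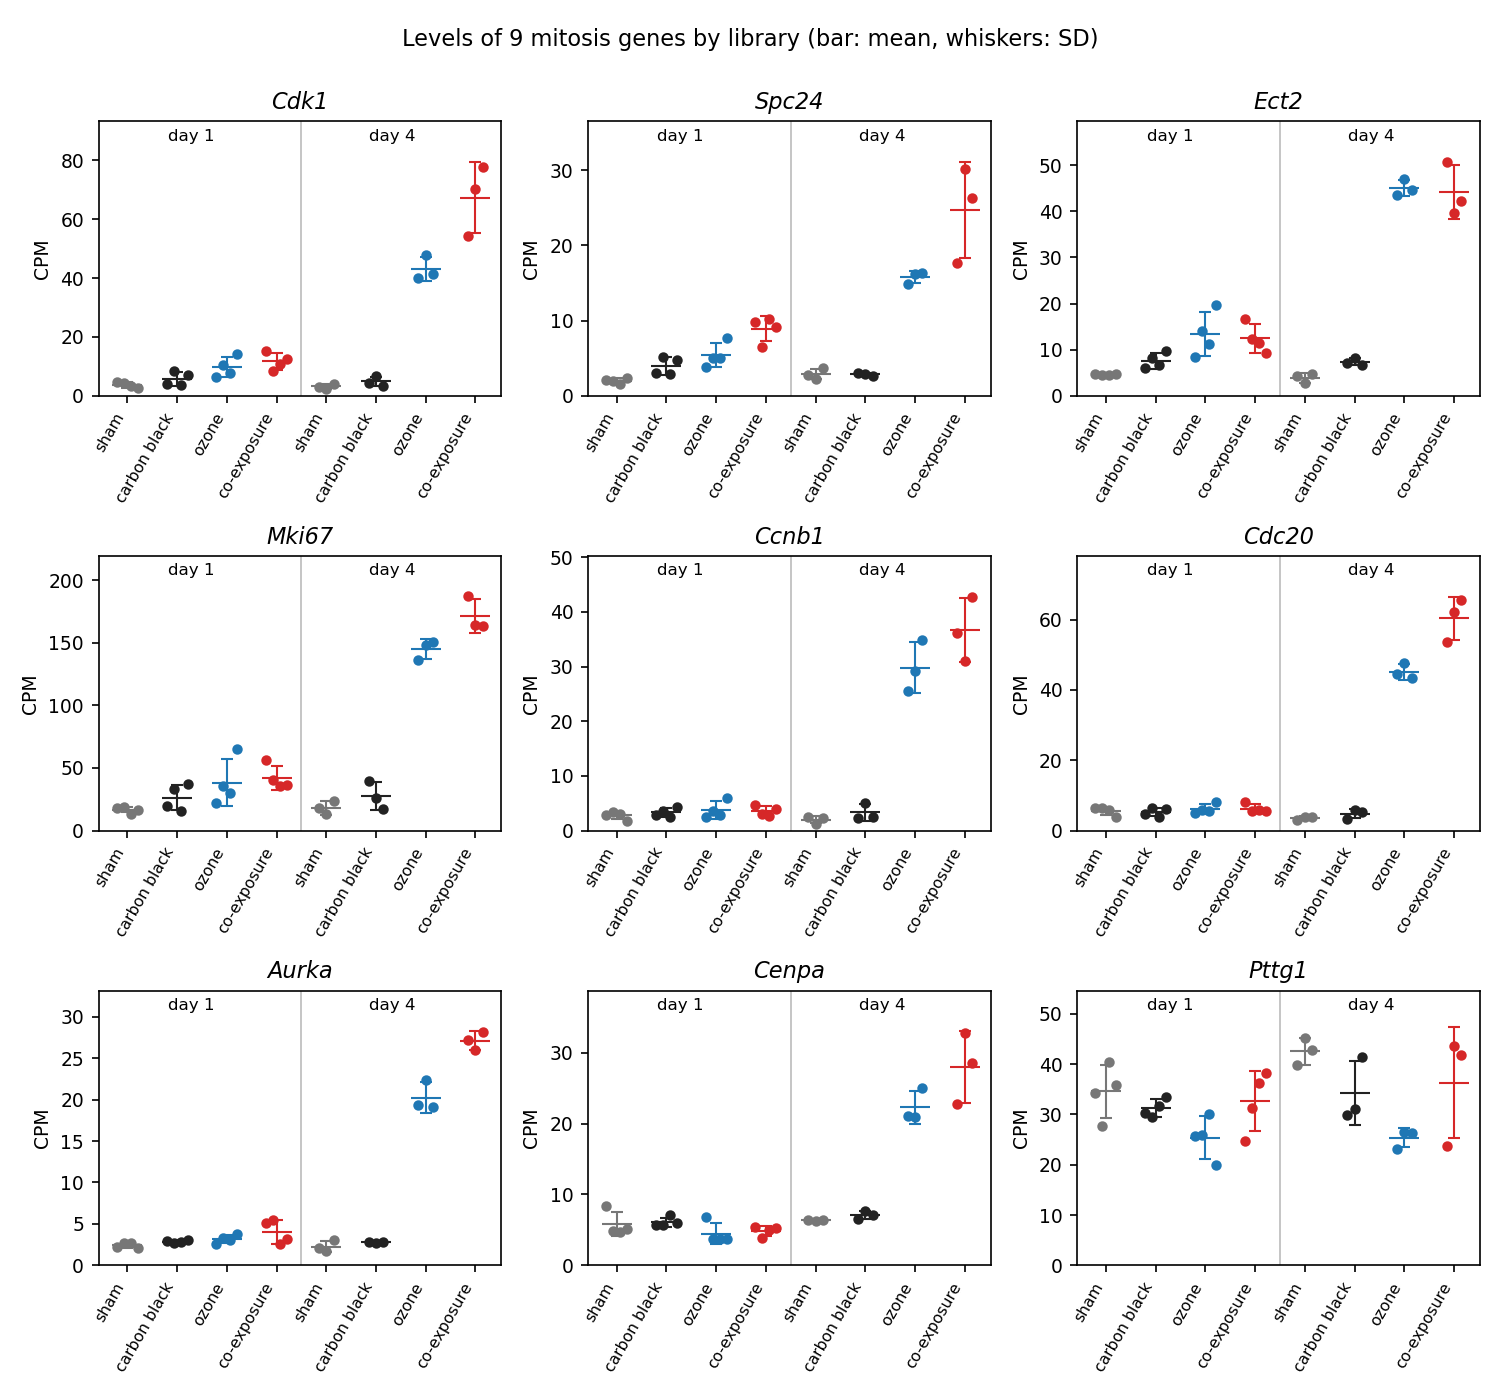
CPM of 9 members in each library (points) of the 8 groups, with the mean (bar) and SD (whiskers), and day 1 left of the dividing line. Cdk1, Spc24, Ect2 and Mki67 are already raised after ozone and co-exposure at day 1. Ccnb1, Cdc20 and Cenpa did not pass the test there, and Pttg1 lies at 19.9 to 45.2 CPM throughout.

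The chromosomal passenger complex, which corrects faulty attachments and then guides cytokinesis, rose in full after co-exposure on day 1. All 4 of its genes passed there, with a median of 1.14, where 10.1% of all genes were higher. After ozone 1 of 4 passed, where 6.81% of all genes were higher. Aurkb, its kinase, was at 1.19, 2.97, 1.79 and 1.96 CPM in day 1 sham libraries, 1.18, 4.72, 3.46 and 7.01 after ozone and 7.62, 3.94, 5.08 and 4.27 after co-exposure. Ozone replicate 1 lay below every sham library while the others lay above, and the ozone value of 1.07 ± 0.37 had an adjusted p of 0.062. Birc5 encodes survivin, its targeting subunit. Levels of Birc5 at day 1 were 3.44, 2.08, 1.41 and 2.45 CPM in sham, 1.69, 5.66, 4.01 and 6.03 after ozone and 7.35, 3.33, 5.50 and 4.99 after co-exposure, and the last group passed (1.18 ± 0.35, adjusted p = 0.0206). At day 4 Birc5 stood at 17.2, 21.8 and 25.7 CPM after ozone and 25.1, 43.6 and 37.7 after co-exposure, against 2.52, 2.77 and 3.65 in sham.

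Motor proteins, kinetochore and spindle genes made up 22 members. Of 9 kinesins 1 rose with ozone at day 1, a count near the share of all genes (6.81% higher), and 3 with co-exposure (10.1%). In both day 4 comparisons 9 of 9 rose (11.7% and 17.7% of all genes), with medians of 3.00 and 3.10. Kif11, the kinesin that pushes spindle poles apart, was at 5.69, 5.19, 4.61 and 4.66 CPM in day 1 sham libraries, and 6.24, 12.4, 7.20 and 12.5 after ozone and 11.4, 7.58, 6.91 and 6.13 after co-exposure lay above them all. The co-exposure difference of Kif11 (0.67 ± 0.23, adjusted p = 0.0441) was smaller than the ozone one (0.94 ± 0.23, adjusted p = 0.00855), and the direct contrast of the 2 exposures did not pass (-0.26 ± 0.22).

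Within the kinetochore, Spc24 rose on day 1, and Cenpa did not pass. Spc24 (ENSMUSG00000074476, chromosome 9, 21755442 to 21760303) encodes a subunit of the NDC80 complex that grips microtubules. It stood at 2.12, 1.93, 1.54 and 2.33 CPM in sham, 3.09, 5.21, 2.93 and 4.77 after carbon black, 3.88, 5.07, 4.98 and 7.71 after ozone, and 9.85, 6.52, 10.2 and 9.12 after co-exposure. Each exposed group lay above sham without overlap, with log2 fold changes of 1.00 ± 0.25 after carbon black (adjusted p = 0.0338), 1.45 ± 0.24 after ozone (adjusted p = 0.000279) and 2.16 ± 0.24 after co-exposure (adjusted p = 7.3e-07). Cenpa encodes the histone H3 variant of centromeres. It was at 8.33, 4.89, 4.74 and 5.15 CPM in sham, and 6.75, 3.78, 3.74 and 3.64 after ozone, with differences of -0.39 ± 0.20 after ozone and -0.25 ± 0.20 after co-exposure that did not pass. At day 4 Cenpa rose 3.49-fold after ozone and 4.38-fold after co-exposure, from 6.37, 6.30 and 6.45 CPM to 21.01, 20.9 and 25.0 and to 22.7, 32.8 and 28.5. Ndc80 itself had 2.65, 2.23, 1.67 and 1.96 CPM in day 1 sham and 2.19, 3.66, 3.46 and 4.06 after ozone, which did not pass (0.66 ± 0.28, adjusted p = 0.127). Its day 4 levels were 8.52, 14.1 and 11.8 CPM after ozone and 16.3, 17.9 and 19.0 after co-exposure, against 1.80, 1.38 and 2.36 in sham. All 8 kinetochore members rose at day 4 in both exposures, where 11.7% and 17.7% of all genes did.

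The 5 spindle assembly genes had the largest day 4 medians of the roles with 4 or more members, 3.70 after ozone and 3.85 after co-exposure. None of the 5 passed after ozone at day 1, in edgeR, where 6.81% of all genes were higher. Of the 5, 4 had an unadjusted p under 0.05. Tpx2, which activates Aurora A on the spindle, passed at day 1 after co-exposure only by the test against sham (0.86 ± 0.26, adjusted p = 0.0228, against 0.61 ± 0.27 after ozone, adjusted p = 0.145). At day 4 Tpx2 was at 37.3, 41.9 and 42.0 CPM after ozone and 52.2, 56.9 and 49.1 after co-exposure, and sham held 3.73, 3.07 and 4.73.

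Cytokinesis and chromosome genes included the clearest day 1 rises. Ect2 (ENSMUSG00000027699, chromosome 3, 27097222 to 27153878) encodes the exchange factor that switches on RhoA for the cleavage furrow. Its day 1 levels were 4.76, 4.45, 4.48 and 4.79 CPM in sham, 8.44, 14.2, 11.2 and 19.8 after ozone and 16.7, 12.4, 11.6 and 9.26 after co-exposure. The sham libraries lay close together and every ozone and co-exposure library lay above them. Ect2 had the smallest p of the set after ozone, 1.54 ± 0.21 (adjusted p = 3.36e-05), and rose by 1.43 ± 0.22 after co-exposure. Anln, the furrow scaffold, rose by 1.35 ± 0.22 and 1.19 ± 0.22. Prc1, which bundles the midzone microtubules, did not pass at day 1 (0.52 ± 0.28 and 0.53 ± 0.28). It then went from 5.05, 4.00 and 4.83 CPM in day 4 sham to 51.3, 56.3 and 57.1 after ozone and 63.1, 61.5 and 52.2 after co-exposure.

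All 3 chromosome genes rose in each ozone and co-exposure comparison. Of all genes, 6.81% and 10.1% did at day 1 and 11.7% and 17.7% at day 4. Mki67 (ENSMUSG00000031004, chromosome 7, 135689784 to 135716361), whose protein coats mitotic chromosomes and is a marker of dividing cells, was at 17.7, 18.8, 13.6 and 16.8 CPM in day 1 sham. After ozone it was at 22.3, 35.8, 30.3 and 65.0 CPM and after co-exposure at 56.2, 40.1, 35.4 and 36.5, all above sham. The day 4 levels were 17.9, 12.9 and 23.7 CPM in sham, 136, 148 and 151 after ozone, and 187, 164 and 163 after co-exposure. Top2a, the topoisomerase that untangles sister chromatids, had 19.1, 19.9, 11.9 and 11.8 CPM in day 1 sham, and ozone libraries held 15.9, 35.2, 27.5 and 50.03. Its rise at day 1 was 1.05 ± 0.32 after ozone (adjusted p = 0.0322), and at day 4 it was 11.1-fold after ozone and 14.2-fold after co-exposure. Pimreg, a mitotic regulator, had the largest rise of the set at day 4 (4.33 after ozone and 4.92 after co-exposure), from a sham level of 0.481, 0.154 and 0.322 CPM that is near the level of 3 counts.

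The counts of ozone and of co-exposure against sham depended on single libraries at day 1 and did not at day 4. Without ozone replicate 4 the ozone day 1 count went from 17 to 7, and the share of all genes called in either direction from 11.4% to 6.08%. The count went to 11 without sham day 1 replicate 3 (7.81% of all genes) and to 25 without replicate 1 of ozone (9.49%). Leaving out the sham day 1 and ozone day 1 libraries with replicate number 2 together was an alternative added after the data were seen. It also gave 11 for ozone (7.21% of all genes) and gave 21 for co-exposure (13.7%). Without all 4 libraries with high muscle genes, also added later, the day 1 counts were 10 and 22 (7.84% and 14.6% of all genes called in either direction) and the day 4 counts 57 and 56. Without co-exposure replicate 1 the co-exposure day 1 count went from 28 to 14, while the share of all genes went from 19.2% to 17.1%. Foxm1, Top2a, Plk1 and Ccna2 after ozone and Kif11, Birc5, Aurka, Tpx2, Plk1 and Top2a after co-exposure were among the day 1 calls lost under at least 1 such omission. At day 4, leaving out each library in turn gave 57 after ozone and 56 after co-exposure every time.

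The libraries of day 1 differed in the mean log2 CPM over the members. After ozone it was 1.84, 2.53, 2.25 and 2.92, and in sham 2.06, 1.86, 1.69 and 1.68, so ozone replicate 1 lay inside the sham range. After co-exposure it was 2.90, 2.34, 2.52 and 2.40, above every sham library. The day 4 libraries were close to each other, at 4.40, 4.56 and 4.56 after ozone and 4.80, 4.85 and 4.87 after co-exposure, with sham at 1.69, 1.48 and 1.79. Carbon black libraries were at 1.736 to 2.49 at day 1, overlapping sham, and at 1.869 to 2.246 at day 4, above every sham library of that day. Summed over the 57 genes, sham libraries held 230.2 to 310.3 CPM in all, and ozone libraries of day 4 held 1539 to 1700 and co-exposure libraries 2062 to 2103. Carbon black libraries of day 4 held 295.7 to 385.1 CPM, where sham of that day reached 276.8. Counting members whose exposed libraries all lay above sham gave 11 with ozone and 24 with co-exposure at day 1, where 12% of all genes did so in each. At day 4 it was 56 in each, where 22.5% and 20.7% of all genes did.

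The difference between the days was tested directly, as the exposure effect at day 4 minus that at day 1. It was positive and past the threshold for 51 of 57 members after ozone, where 2.36% of all genes were, and for 53 of 57 after co-exposure, where 5.44% were. The median difference was 2.24 after ozone (4.71-fold) and 2.47 after co-exposure (5.55-fold). Among those with the smallest p were Cdc20 (3.49 ± 0.28 after ozone, 3.88 ± 0.28 after co-exposure), Aurka (2.75 ± 0.31 and 2.82 ± 0.30), Ccnb1 (3.44 ± 0.42 and 3.81 ± 0.42) and Ccnb2 (3.18 ± 0.41 and 3.80 ± 0.41). The members that did not pass after ozone were Spc24 (0.98), Cdca5 (1.44), Ttk (1.47), Nuf2 (2.16), Cdc25c (3.15) and Pttg1 (-0.30). After co-exposure Spc24 (0.90), Cdca5 (1.5), Nuf2 (1.72) and Pttg1 (-0.14) did not pass. Between the sham groups no member differed by day in edgeR, with a median of -0.18 and 6 members at an unadjusted p under 0.05, and 0% of all genes passed. DESeq2 and limma-voom also called none there. Within ozone, 56 of 57 members were higher at day 4 than at day 1 (8.87% of all genes), and within co-exposure 56 of 57 (14.4%).

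**Figure D3:**
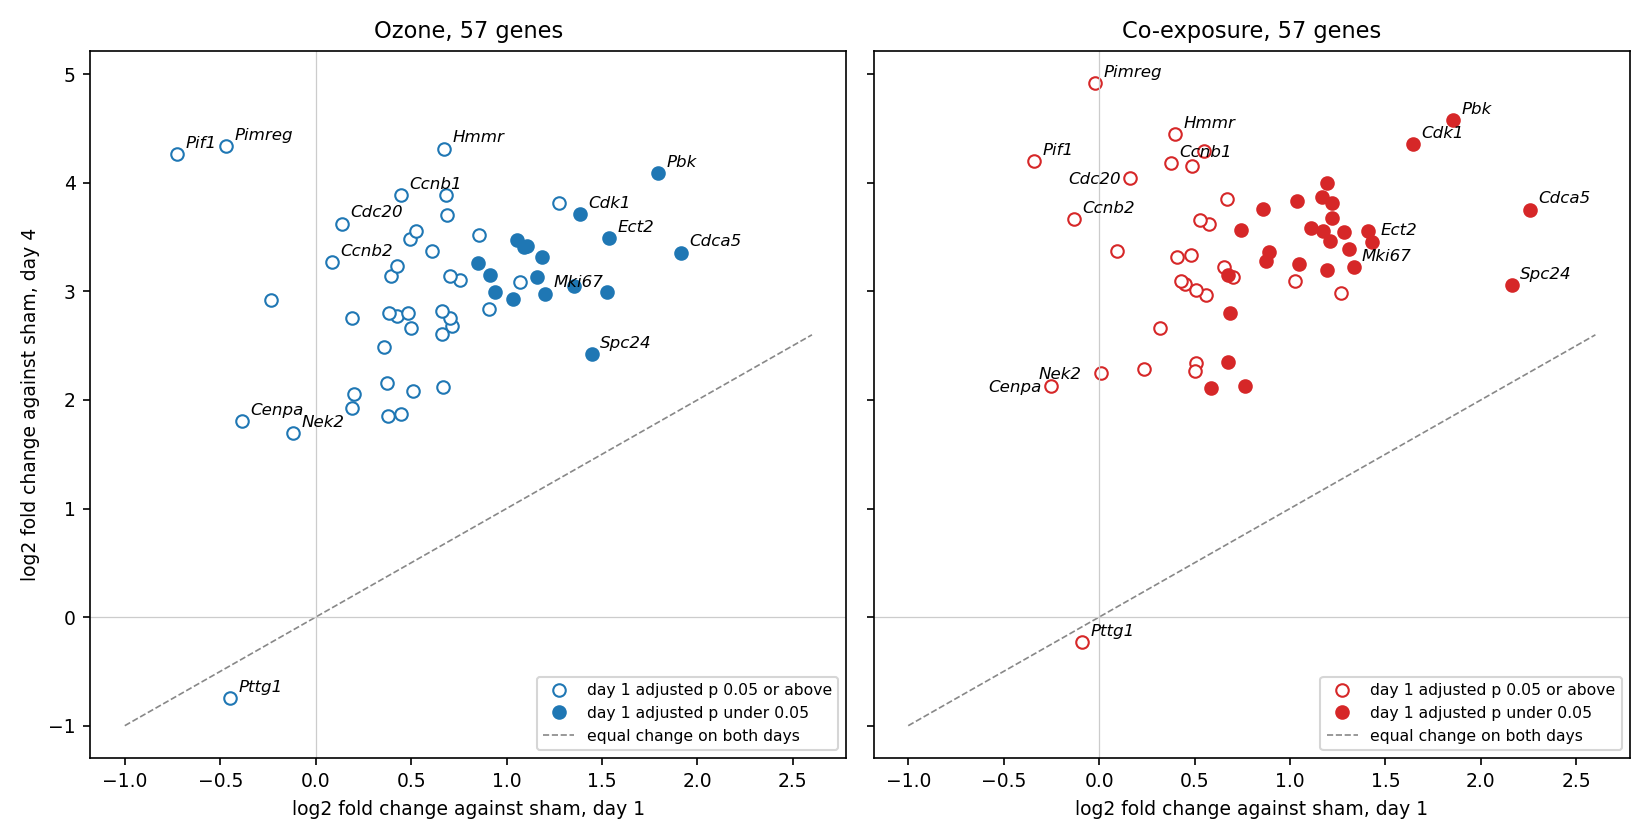
Log2 fold change against sham at day 1 (x axis) and day 4 (y axis) of the 57 genes after ozone (left) and co-exposure (right). Filled points passed the test at day 1, and the dashed line marks equal change on both days. All genes but Pttg1 lie above the line, from Spc24, with a gain of 0.98 and 0.90, to Pif1 (4.99 after ozone) and Pimreg (4.94 after co-exposure).

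Of the 17 members that passed after ozone at day 1, 11 had a promoter with a single start, and TTTGAA was in 11 of those, CCAAT in 8 and both in 8. Of the 32 other members with such a promoter, TTTGAA was in 20, CCAAT in 22 and both in 16. These counts are descriptions of the letters in the windows.

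Carbon black alone moved few of the members past the threshold. At day 1 Spc24 was the one of 57 that passed, a count near the share of all genes (1.57% higher). In that comparison 11 members had an unadjusted p under 0.05 and the median log2 fold change was 0.32. The count past the threshold was 0 without any 1 of the 4 sham day 1 libraries, without carbon black replicate 2 or 4, in a fit of the compared groups alone or with limma-voom. It was 1 with DESeq2 (2.2% of all genes in either direction) and 2 without carbon black replicate 1 (1.66%). Separately, 3 members had every carbon black library above every sham library, where 4.73% of all genes did. Cdca5 had the largest value (1.25 ± 0.46) and Nek2, a centrosome kinase, the smallest (-0.34 ± 0.20), and neither passed. In the same comparison 11 of 11 neutrophil genes rose, with sums of 52.65 to 259.3 CPM in sham and 149.3 to 4797 CPM after carbon black, and their part in the Spc24 result was not tested.

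At day 4 no member passed after carbon black in edgeR, where 0.208% of all genes did, and 15 had an unadjusted p under 0.05. DESeq2 called 2 members, with 1.18% of all genes called, and limma-voom 0, with 0.121%. Without carbon black replicate 3, which held high muscle genes, edgeR called 4 members and 4.33% of all genes, and without all 4 such libraries it called 3 and 3.38%. The median log2 fold change was 0.56 (1.47-fold), and 18 members had all carbon black libraries above all sham libraries, where 7.93% of all genes did. Kif20a, a kinesin of cytokinesis, had the largest value (1.48 ± 0.36, adjusted p = 0.0944). The difference between days passed for no member in edgeR (0.094% of all genes), with 5 at an unadjusted p under 0.05 and 0 in DESeq2 and limma-voom. Between the carbon black groups Nek2 alone passed, higher at day 4 by 0.84, where 0.316% of all genes were higher, and it did not pass with upper-quartile scaling, without the low-count filter, in limma-voom or in a fit of the compared groups alone. That call was also lost without carbon black day 1 replicate 1, 3 or 4 or day 4 replicate 2 or 3.

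Adding carbon black to ozone gave no member past the threshold at either day in edgeR, where 0% of all genes passed in both. At day 1 the median difference between co-exposure and ozone was 0.13, with 4 members at an unadjusted p under 0.05 and 0 called by DESeq2 or limma-voom. At day 4 the median was 0.35, 52 of 57 members were above 0, and 12 had an unadjusted p under 0.05. DESeq2 and limma-voom called 1 member each, with 3.31% and 0.645% of all genes called. Without co-exposure replicate 1 edgeR called 5 members and 18.3% of all genes, so that the members' share lay under that of all genes. Without co-exposure replicate 3 it called 0. Cks2, a CDK1-binding subunit, had the largest difference, 0.87 ± 0.24 (adjusted p = 0.0809). For Cdk1 the difference was 0.64 ± 0.25 (adjusted p = 0.159) and for Cdc20 it was 0.42 ± 0.17, with a 95% interval of 0.06 to 0.78. The members were thus not shown to differ between the exposures, and intervals such as that of Cdc20 do not show that they were alike.

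Genes of S phase were raised on both days. In a list of 45 genes of DNA replication and the G1/S transition, 36 were higher with ozone and 42 with co-exposure at day 1. The medians were 1.05 and 1.13, and 6.81% and 10.1% of all genes were higher. At day 4, 42 and 44 of 45 were higher (11.7% and 17.7% of all genes), with medians of 1.59 and 1.83. The difference between days passed for 1 of 45 after ozone and 6 of 45 after co-exposure, with medians of 0.53 and 0.63. Of all genes, 4.24% and 10.2% passed there in either direction. Carbon black gave none of 45 at either day in edgeR, with 6 and 1 at an unadjusted p under 0.05.

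The gap between these lists changed sign against sham from day 1 to day 4. The gap is the mean log2 CPM of the 45 replication genes minus that of the 57 mitosis genes in a library. It was 0.59 to 0.95 in day 1 sham and 0.96 to 1.00 in day 4 sham. The day 1 ozone and co-exposure libraries lay above their sham, at 1.20 to 1.35 and 1.01 to 1.36. The day 4 ones lay below theirs, at -0.30 to -0.19 and -0.42 to -0.30. Carbon black libraries were at 0.56 to 0.82 at day 1, overlapping sham, and at 0.47 to 0.85 at day 4, below every sham library of that day. Ozone day 1 replicate 1, inside the sham range for the mitosis genes, held a replication mean of 3.19 against a sham maximum of 2.72. Since gene lengths differ, the sign of a gap has no meaning of its own, and only differences between libraries are read.

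**Figure D4:**
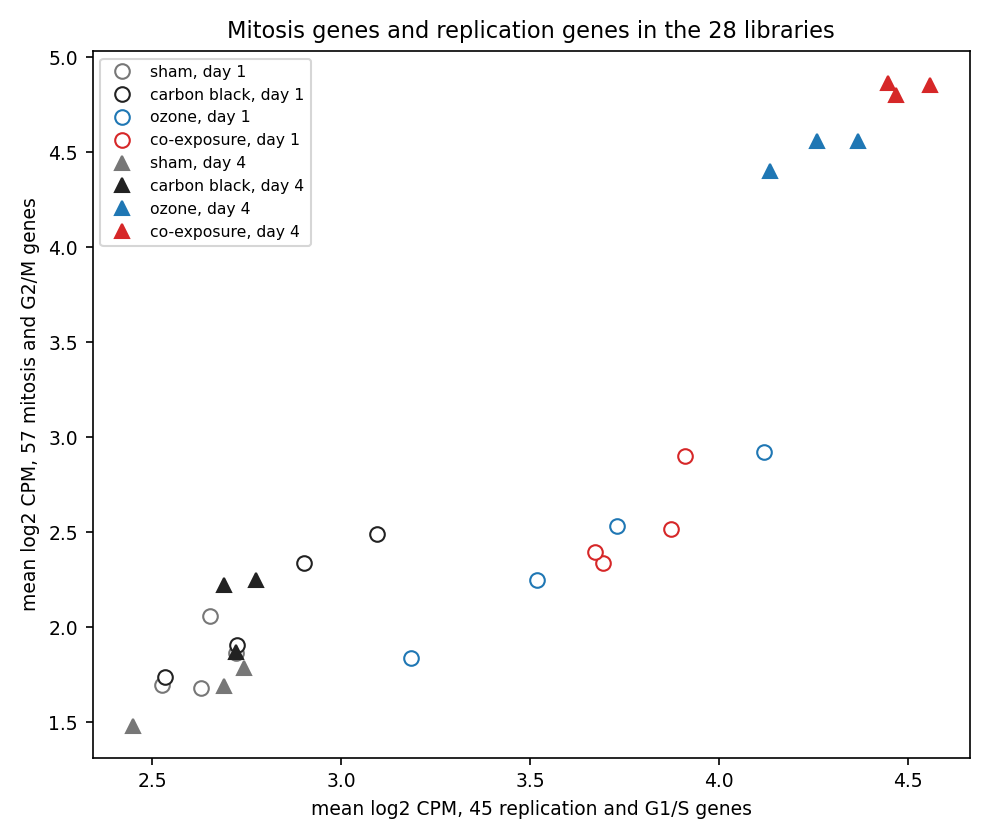
Mean log2 CPM of the 45 replication and G1/S genes (x axis) and of the 57 mitosis and G2/M genes (y axis) in each of the 28 libraries, with open circles for day 1 and triangles for day 4. Day 1 ozone and co-exposure libraries are shifted to the right of sham, and the day 4 ones stand apart at the upper right with mitosis means of 4.40 to 4.87.

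A second list of 58 genes of G2 and mitosis that are not members gave similar counts. Of these, 20 were higher with ozone and 29 with co-exposure at day 1 (6.81% and 10.1% of all genes). At day 4, 55 and 57 were higher (11.7% and 17.7%), with medians of 2.38 and 2.71. Ncapg2, a condensin subunit, rose by 1.38 after ozone at day 1, and Shcbp1, which acts in the midbody, by 1.66 with ozone and 1.76 with co-exposure. At day 4 Ckap2, a spindle microtubule protein, rose by 3.96 and 4.38, and Kpna2, a nuclear import receptor, by 1.41 and 1.65. Smc4, Zwint and Cenpw did not pass after ozone at day 4, and Zwint did not after co-exposure.

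Cyclins and kinases of G1 and the brakes of the cycle were counted in the same comparisons, against 6.81% of all genes higher and 4.63% lower after ozone at day 1 and 11.7% and 9.07% at day 4. After co-exposure these shares were 10.1% and 9.09% at day 1 and 17.7% and 16.3% at day 4. Of 9 G1 genes, 3 were higher and 1 lower after ozone at day 1, and 4 higher and 1 lower at day 4. The growth factor-induced cyclin gene Ccnd1 was higher in both (0.45 and 0.72) and Ccnd2 lower (-0.33 and -0.44). After co-exposure 5 were higher and 2 lower at day 1, among them Myc (1.31), and 6 higher at day 4. In a list of brakes, with 22 genes tested, Wee1, the kinase that holds CDK1 inactive, rose by 0.76 after ozone at day 1 and 1.23 at day 4. Lin9, also in this list, rose by 0.53 and 1.13. It is a subunit of MuvB, which switches mitosis genes on as well as off, so its rise is not read as that of a brake. The counts of genes of this list higher and lower were 3 and 1 after ozone at day 1, 4 and 2 after co-exposure, and 9 and 3 and 8 and 3 at day 4.

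Markers of cell types moved in the same comparisons as the mitosis genes, and their part in the result was not tested. Of 10 genes listed for transitional epithelium, the state between type 2 and type 1 alveolar cells after injury, 8 were higher in each of the 4 ozone and co-exposure comparisons. Whether these genes, which include Krt5 and Trp63, mark that state alone in whole lung was not tested. The summed level of the 10 was 971.1 to 1292 CPM in day 1 sham, 1930 to 2641 after ozone and 2505 to 3111 after co-exposure. At day 4 it was 1033 to 1108 CPM in sham, 1760 to 2538 after ozone and 2110 to 2986 after co-exposure. At day 4 of ozone, 7 of 15 macrophage and monocyte genes were higher and none lower, and 6 higher and 1 lower after co-exposure. The sums at day 4 were 867 to 1059 CPM in sham, 1741 to 2122 after ozone and 1203 to 2426 after co-exposure. Genes of alveolar type 2 cells, which mark lung tissue, summed to 24210 CPM or more in all 28 libraries, and 2 of 10 were higher after ozone and 1 of 10 after co-exposure at day 4. Endothelial genes were lower in 9 of 11 after ozone and 10 of 11 after co-exposure at day 4, from 3489 to 4659 CPM in sham to 2519 to 2611 and 1410 to 2563. T and NK cell genes were lower in 7 and 8 of 12. Of all genes, 11.7% were higher and 9.07% lower after ozone at day 4, and 17.7% and 16.3% after co-exposure. At day 1, 6.81% were higher after ozone and 10.1% after co-exposure. Club and ciliated genes summed to 42240 to 56650 CPM in day 4 sham, 23240 to 26230 after ozone and 20660 to 49110 after co-exposure. Neutrophil sums at day 4 were 77.88 to 112.5, 105.1 to 155.4 and 152.3 to 304.7 CPM in the same order. Macrophage and monocyte sums at day 1 were 1228 to 1417, 1342 to 1527 and 876.7 to 1338 CPM in that order.

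Some markers of blood or thymus precursors were at or near 0, and others of the same lists were not. The part of such cells in the result was not tested. The granulocyte precursor genes Elane, Mpo, Ctsg and Ms4a3 held 0 to 2 counts over all libraries of a group in sham, ozone and co-exposure at either day. Over all 28 libraries, carbon black included, they held 8, 12, 5 and 5 counts. The other genes of that list held more, with 13 for Fcnb, 54 for Camp, 163 for Prtn3, 613 for Ngp and 52788 for Ltf. Of 9 genes in that list 3 passed the low-count filter, and Ltf, also made outside the marrow, rose at day 4. Ltf held most of the counts of this list over all libraries, so the list sum is read as mainly Ltf. The list sum at day 4 was 50.27 to 77.44 CPM in sham, 40.24 to 196.9 after carbon black, 214.9 to 482.8 after ozone and 442.8 to 1142 after co-exposure. At day 1 the mean log2 CPM of its tested genes reached 4.604 in carbon black libraries and 2.123 in sham. The thymocyte gene Rag2 was at 0 in all 28 libraries and Rag1 at 0 to 0.142 CPM in sham, ozone and co-exposure libraries. Of 6 thymocyte genes tested, 1 was lower after ozone at day 4, near the share of all genes (9.07%), and 4 after co-exposure (16.3%). The thymocyte sums at day 4 were 59.76 to 69.39 CPM in sham, 48.42 to 52.74 after ozone and 31.95 to 40.32 after co-exposure. Erythroid precursor genes Klf1 and Rhag stayed at or below 0.426 CPM in sham, ozone and co-exposure libraries, and 6 and 8 of 10 erythroid genes were lower and 1 higher at day 4. Of all genes, 9.07% and 16.3% were lower there and 11.7% and 17.7% higher. The erythroid sums there were 11250 to 30690 CPM in sham, 5231 to 9238 and 4122 to 7112.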

How the data were processed

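Stranded poly(A) RNA libraries of lung homogenates were quantified by the authors with Salmon 1.1.0, per the labels. The submitters' processing notes name mm10, R 3.6.3 and DESeq2 with no role. The deposited values are estimated counts per gene, not normalized, of which 17.7% were not whole, and they were rounded here. How transcripts were summed to genes, and the strand setting, are not given in the sources used here. Salmon divides reads that fit several transcripts, so 4 members with a pseudogene of the same name (Ccnb1, Ccnb2, Kif22, Kif4) and the 30 members that overlap another annotated gene are uncertain to that extent.

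Symbols and 1-based positions came from GENCODE M21 (GRCm38). Groups and replicate numbers came from the sample titles. Whether each library is a separate mouse is not stated in the labels, and the p-values then reflect only the spread among libraries, which may be technical. The sources used here do not state when lungs were taken after the last exposure.

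All 28 libraries entered 1 fit with a mean per group in edgeR 4.0.16 (R 4.3.3): TMM scaling (factors 0.902 to 1.05), filterByExpr (14887 genes, 99.9% of counts), robust quasi-likelihood F tests, 20 residual degrees of freedom and Benjamini-Hochberg adjustment over all genes tested, threshold 0.05. The common biological coefficient of variation was 15.7%. Over all genes, median log2 fold changes were -0.01 to 0.01 in the 15 comparisons. Floors of 3 counts cover counting error only. The script was tested on simulated data. Alternatives were median-of-ratios and upper-quartile scaling, no filter, a filter of 1 CPM in 6 libraries, DESeq2 1.42.0, limma-voom (limma 3.58.1), a non-robust fit, the compared groups only, a replicate block, and omission of each library.

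The members and lists were chosen with earlier results of these data known. All members could be named, with values by library for 18 representatives and for members with the smallest p (up to 8) or an extreme fold change in a comparison. From other lists up to 4 genes past the threshold with the smallest p were named. The motifs, the printed promoters, the marker genes at or near 0 and the genes that did not pass in the second G2/M list were chosen after values were seen.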

Additional observations from a re-analysis of the deposited data

Results flagged for a closer look

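For the 18 representatives and the summed CPM of all 57 members in the 4 day 1 groups, 4 of 76 sets of 4 values held a library far from the others, where chance gives about 1 in 20. Cenpa was at 8.33 CPM in sham day 1 replicate 1, with the others at 4.74 to 5.15, and at 6.75 CPM in ozone day 1 replicate 1, with the others at 3.64 to 3.78. In co-exposure day 1 replicate 1, Plk1 was at 7.62 CPM (others 3.18 to 3.53) and Prc1 at 15.8 CPM (others 6.41 to 7.58).

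For the 18 representatives the exposure effect differed between the days after ozone and after co-exposure, by the edgeR test of the day 4 minus day 1 difference with adjusted p under 0.05. These log2 differences, first for ozone and then for co-exposure, were 2.32 and 2.46 for Ccna2, 3.44 and 3.81 for Ccnb1, 3.18 and 3.80 for Ccnb2, 2.33 and 2.71 for Cdk1, 2.31 and 2.6 for Plk1, and 2.75 and 2.82 for Aurka. They were 2.40 and 2.20 for Foxm1, 2.13 and 2.34 for Bub1b, 3.49 and 3.88 for Cdc20, 2.01 and 2.14 for Aurkb, 1.93 and 2.38 for Birc5, and 2.06 and 2.48 for Kif11. The remaining pairs were 2.19 and 2.38 for Cenpa, 1.94 and 2.57 for Ndc80, 2.76 and 2.90 for Tpx2, 3.03 and 3.13 for Prc1, 2.42 and 2.79 for Top2a, and 1.78 and 1.89 for Mki67.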

How the results depend on the processing

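Of the counts of members past the threshold, 143 recomputed under another scaling, filter, tool or sample choice stayed within 1.5 times the reported count and 16 did not. The exceptions were small counts or day 1 counts, and the cause was not tested. Carbon black at day 1 had 0 with limma-voom, with only the compared groups (51 members tested) and without the sham and ozone day 1 libraries of replicate number 2, where ozone at day 1 had 11. Without all 4 libraries with high muscle genes, counts were 0 for carbon black at day 1, 10 for ozone at day 1, 3 for carbon black at day 4 and 0 for carbon black between days. Carbon black at day 4 had 2 with DESeq2. Carbon black at day 4 against day 1 had 0 with upper-quartile scaling, no filter, limma-voom, only the compared groups and the replicate block. Co-exposure against ozone at day 4 had 1 with DESeq2 and 1 with limma-voom. Leaving out each library gave 0 to 2 for carbon black at day 1, 0 to 4 for carbon black at day 4, 0 to 1 for carbon black between days, 7 to 25 for ozone at day 1, 14 to 26 for co-exposure at day 1, 44 to 53 for the ozone day difference, 50 to 54 for the co-exposure day difference and 0 to 5 for co-exposure against ozone at day 4. Counts were 57 for ozone at day 4, 56 for co-exposure at day 4 and for both exposures between days, and 0 elsewhere.

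The signs that turned belonged to values that did not pass the test. Bub1b after carbon black at day 1 was -0.01 (-0.013 with upper-quartile scaling, -0.006 with the replicate block) and -0.03 with limma-voom (-0.032). Without the 2 libraries, Cenpa after carbon black at day 1 was -0.003 and Ccnb2 after ozone -0.06. Without the 4 they were -0.003 and -0.059, and Birc5 after carbon black at day 4 was 0.226. Over single omissions the day 1 carbon black values ran from -0.26 to 0.157 for Ccnb2, -0.02 to 0.294 for Cenpa, -0.222 to 0.136 for Bub1b, -0.229 to 0.024 for Cdc20 and -0.11 to 0.329 for Ndc80. At day 1 Ccnb2 ran from -0.37 to 0.051 after co-exposure and -0.061 to 0.269 after ozone, and Cdc20 from -0.035 to 0.213 after ozone. Birc5 after carbon black at day 4 ran from -0.418 to 0.248.

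The replicate numbers were not used to pair the libraries in the main fit. Not every same-number pair correlated above 0.1, but a true pairing need not reach that, so these correlations cannot decide whether the numbers pair the libraries. Deviations of same-numbered libraries correlated at -0.25 to 0.373 at day 1 (6 of 24 pairs over 0.1) and -0.105 to 0.479 at day 4 (6 of 18), and those of different numbers were over 0.1 in 10 of 72 and 3 of 36 pairs. In all, 14 of 28 libraries correlated best with their own number, a hint from the data and not from the design. With the replicate block the ozone day 1 count was 17 and the co-exposure day 1 count 27. Low counts in sham, near the level of 3 counts for Pimreg and Cdca5, limit the precision of those fold changes.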
